A study of Mus musculus with 6 samples.

Results

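Neutrophils carry a small set of abundant transcripts that mark successive steps of their making, and 10 of these genes were followed here through the liver, ovary and uterus of immature mice. They were *Elane*, *Mpo* and *Prtn3*, which encode proteins of the primary granules, *Ngp* and *Camp*, which encode proteins of the specific granules, and *S100a8*, *S100a9*, *Retnlg*, *Csf3r* and *Cxcr2*, which mark maturing and mature neutrophils. The 10 genes were selected as a neutrophil set with the BHPF responses of some of them already known, so their ratios of BHPF to control are given as a description. The array carried 11 probes for them, 2 for *Camp* and 1 for each of the others, among 55681 probes, of which 26762 could be assigned to 20284 genes with a symbol.

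The animals were immature female CD-1 mice, 24 days old by the labels, dosed into the stomach once a day for 3 days with fluorene-9-bisphenol (BHPF, a bisphenol A substitute) at 50 mg per kg body weight, or with peanut oil alone as the control. Liver, ovary and uterus RNA was mixed from 3 mice for each pool and hybridised to 1 array of 1 colour (Cy3), so that each of the 6 groups, control and BHPF in each tissue, was a single array. No comparison within a tissue therefore has a replicate. Whether BHPF acted alike across the 3 tissues was not put to a test, because the genes were chosen with these ratios known. The question was how BHPF altered expression in each tissue.

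The precursors of neutrophils make their granule proteins in a fixed order. Promyelocytes fill the primary granules with myeloperoxidase and serine proteases, and myelocytes and metamyelocytes then make the antimicrobial proteins of the specific granules. The last steps bring high S100a8 and S100a9, resistin-like gamma and the CXC chemokine receptor Cxcr2. Transcripts of the primary granules are largely shut off before the cell leaves the marrow, and a circulating neutrophil is therefore rich in *S100a8* and *S100a9* and poor in *Elane* and *Mpo*. S100a8 and S100a9 pair to form calprotectin, an alarmin that binds zinc and manganese and, outside the cell, engages TLR4 and RAGE. In mice the liver makes blood cells before birth and for some time after it, which is not so of the ovary or uterus.

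The transcription factors PU.1 and C/EBP are required for making neutrophils, and their motif letters were looked for in the 250 bases before the start of each gene, on both strands. These windows came from RefSeq (GRCm38.p6) and were found for all 10 genes. GAGGAAGT, the PU.1 letters, occurred before all 3 primary granule genes and before *S100a8*, so in 4 of the 10 windows, while 2.4% of 32851 promoter windows of the same length held them. TTNNGCAA, the C/EBP letters, occurred before *Ngp* (at 2 places), *S100a9* and *Retnlg*, so in 3 of 10, against 9.6% of all windows, and no match of one motif overlapped one of the other. The 120 bases around the PU.1 letters of these 4 genes and around the C/EBP letters nearest the start of *Ngp* are shown. Of the motifs searched, the PU.1 letters were the one found before all 3 primary granule genes. Capitals mark the matched letters, which in *S100a8* are those of the reverse strand (ACTTCCTC), and each sequence is written 5′ to 3′ along its gene.
Elane, chr10:79886171-79886290, plus strand: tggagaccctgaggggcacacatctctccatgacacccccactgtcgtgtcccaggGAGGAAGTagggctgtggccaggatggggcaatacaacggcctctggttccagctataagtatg
Prtn3, chr10:79879516-79879635, plus strand: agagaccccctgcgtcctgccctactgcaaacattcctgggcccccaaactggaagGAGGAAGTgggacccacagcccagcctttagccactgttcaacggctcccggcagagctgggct
Mpo, chr11:87793534-87793653, plus strand: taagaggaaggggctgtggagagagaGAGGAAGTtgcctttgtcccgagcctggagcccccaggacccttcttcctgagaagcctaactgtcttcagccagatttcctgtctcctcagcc
S100a8, chr3:90668843-90668962, plus strand: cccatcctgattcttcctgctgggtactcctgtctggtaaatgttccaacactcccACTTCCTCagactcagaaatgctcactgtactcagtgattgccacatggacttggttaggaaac
Ngp, chr9:110419688-110419807, plus strand: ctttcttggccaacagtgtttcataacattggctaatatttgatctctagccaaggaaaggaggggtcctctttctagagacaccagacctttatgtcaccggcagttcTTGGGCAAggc
The first capital base lay 85 bases before the start of *Elane*, 95 before that of *Prtn3*, 224 before that of *Mpo*, 172 before that of *S100a8* and 11 before that of *Ngp*. *Prtn3* and *Elane* are neighbours on chromosome 10 and *S100a8* and *S100a9* on chromosome 3, with 0 other genes starting between the members of either pair in the RefSeq table. A match is a run of letters and not a measured binding site, and the windows of *Camp*, *Csf3r* and *Cxcr2* held neither run.

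The level of a gene is given throughout as log2 of its array intensity minus the 75th percentile of that array, so that a level of 0 is the intensity below which 75% of probes lay. A log2 ratio is the level with BHPF minus the level in the control of the same tissue, and −1 is a 2-fold lower intensity. Levels of different genes come from different probes and are not set against each other. Where a probe was called not well above background on 1 array of a pair, the difference is a bound, taken against the dimmest spot of that array which passed this call, or against the probe's own intensity where that was higher. The only error that could be measured was that between replicate spots of the same probe, whose SD was 0.106 to 0.126 per array, which gives a log2 ratio of single spots an SD of 0.16. This rose to 0.232 for levels under −3. It covers hybridisation and scanning, not the animals.

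The 6 arrays lay on 1 slide and were scanned together, with 61.3 to 74.5% of probes well above background, and no probe was saturated on any of them. The controls and the BHPF samples lay in different rows of the slide, so that row and treatment cannot be told apart. Each tissue was checked by its defining markers: both arrays of the labelled tissue lay above the other 4 arrays for 8 of 8 liver markers, 7 of 8 ovary markers (all but *Foxl2*) and 8 of 11 uterus markers. The array labelled BHPF uterus stood apart. On it all 8 liver markers were higher than in the control uterus, by 2.65 to 5.49 (log2 ratio), and the gain amounted to 9.21% of their BHPF liver intensity at the median (0.92 to 17.85%). In the ovary that figure was 0.35%. In addition, the values that the authors deposited in their processed table under each uterus group were those of the other uterus array, so the direction of every uterus ratio rests on the labels of the scanner files, and it would be the opposite if those labels were exchanged. Uterus ratios of the neutrophil set are therefore given with and without a liver share. For all other genes no share was taken away, so their BHPF uterus values may include liver transcripts. RNA of whole tissue was measured, so fewer neutrophils and less RNA per neutrophil cannot be told apart in any of these results.

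In the control mice most of the neutrophil genes had a higher level in the liver than in the ovary or uterus. Levels on the control liver array were at least 2-fold above those on the control ovary array for 9 of the 10 genes, where 21.6% of 17189 genes with a symbol were, and above those on the control uterus array for 8 of 10, where 20.0% of 16620 genes were. *Csf3r* was the exception in both comparisons, and *Mpo* was lower in the control liver than in the control uterus, by 1.92. The median difference over the 10 genes was 3.93 from liver to ovary and 2.39 from liver to uterus, and the median over all genes with a symbol was 0.01 and 0.02. Between the reproductive tissues, the control uterus lay above the control ovary by 2-fold or more for 6 of 9 genes evaluated, where 2342 of 17159 genes with a symbol did. The median difference was 1.41, against 0.02 over all genes with a symbol.

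**Figure D1:**
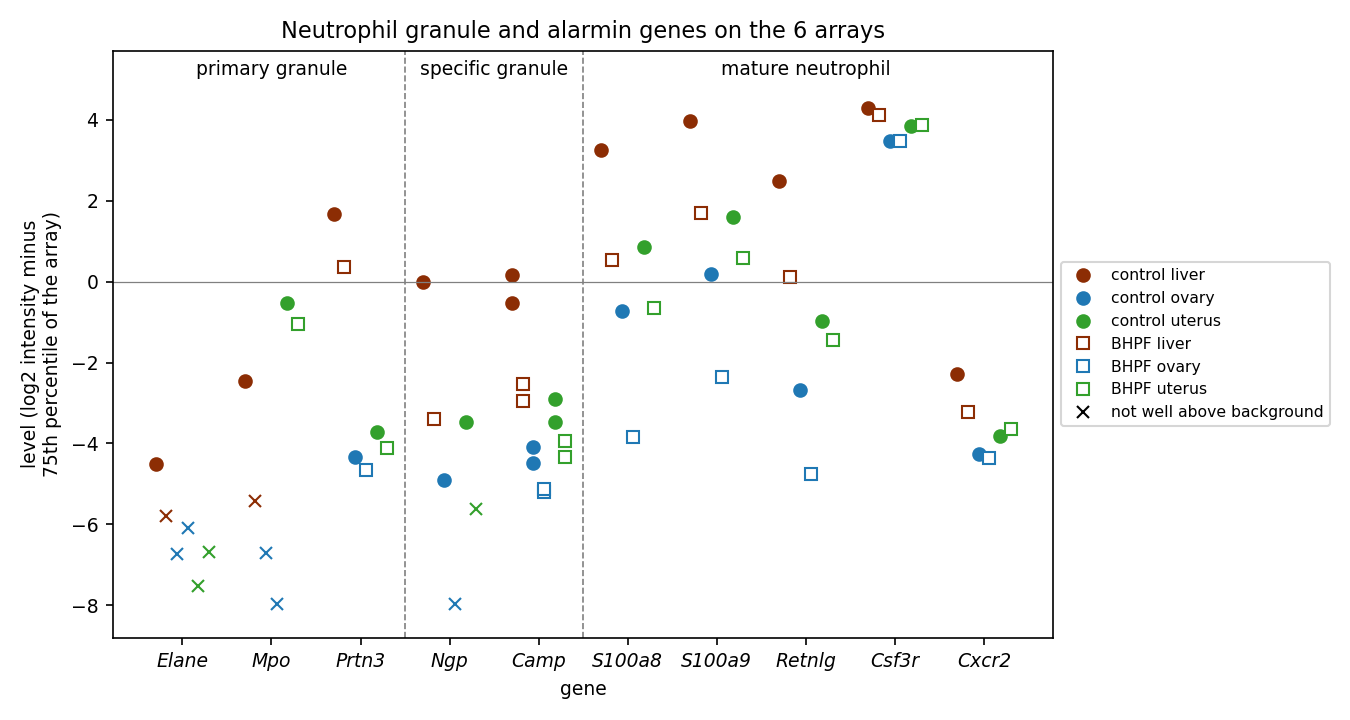
Level of each gene (vertical axis, log2 intensity minus the 75th percentile of the array) on the 6 arrays, with genes grouped by step of neutrophil making. Filled circles are controls, open squares BHPF and crosses values not well above background; *Camp* has 2 probes. *S100a8*, *S100a9* and *Retnlg* had their highest level in the control liver and their lowest in the BHPF ovary, while *Csf3r* stayed between 3.46 and 4.28 on all 6 arrays.

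Of the primary granule genes, *Elane* and *Prtn3* had their highest level in the control liver and *Mpo* in the control uterus. *Elane*, neutrophil elastase, was well above background on the control liver array alone, at a level of −4.50. Its intensity on the other 5 arrays corresponded to −5.78 in the BHPF liver, −6.74 and −6.09 in the control and BHPF ovary, and −7.51 and −6.67 in the control and BHPF uterus, none of them well above background. The elastase transcript was thus near the limit of the array even where it was detected, and its BHPF liver signal was lower by at least 1.32-fold (log2 ratio at most −0.41).

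*Mpo* encodes myeloperoxidase, which makes hypochlorous acid in the phagosome. Its level was −2.45 in the control liver and −5.43 in the BHPF liver, the latter not well above background, so it was at least 5.49-fold lower with BHPF (log2 ratio at most −2.46). On the ovary arrays it was not well above background (−6.71 and −7.97). The uterus differed from both, with levels of −0.53 in the control and −1.06 with BHPF, a log2 ratio of −0.53, and the control uterus exceeded the control ovary by at least 55.47-fold. No other gene of the set had its highest level in the uterus.

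*Prtn3*, proteinase 3, was well above background on all 6 arrays. Its levels were 1.66 and 0.35 in the control and BHPF liver, −4.34 and −4.65 in the ovary, and −3.72 and −4.12 in the uterus. The liver arrays thus stood far above the other 4, by 64.05-fold for the control liver over the control ovary. With BHPF it was 2.49-fold lower in the liver (log2 ratio −1.32), which is beyond the spread between spots, whereas its ratios of −0.31 in the ovary and −0.40 in the uterus were within 2 SD of that spread (0.465 at these levels).

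Both specific granule genes were at least 4-fold lower in the BHPF liver. *Ngp*, neutrophilic granule protein, a member of the cystatin superfamily, had levels of −0.02 and −3.39 in the control and BHPF liver, −4.89 and −7.97 in the ovary, and −3.48 and −5.62 in the uterus, with the BHPF ovary and BHPF uterus values not well above background. It was 10.39-fold lower in the BHPF liver (log2 ratio −3.38), at least 1.81-fold lower in the BHPF ovary and at least 3.00-fold lower in the BHPF uterus. Only 15 of the 15530 genes evaluated in the liver had a lower ratio.

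*Camp* encodes the cathelicidin CRAMP, an antimicrobial peptide precursor. One of its 2 probes gave 0.16 and −2.52 in the control and BHPF liver, −4.08 and −5.20 in the ovary, and −2.90 and −3.95 in the uterus. The other gave −0.54 and −2.96, −4.49 and −5.13, and −3.48 and −4.34 in the same order. Both probes were lower with BHPF in every tissue, and their mean log2 ratio was −2.55 in the liver, −0.89 in the ovary and −0.95 in the uterus (5.86-, 1.85- and 1.94-fold lower).

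The alarmin pair and *Retnlg* were at least 4-fold lower with BHPF in both the liver and the ovary. *S100a8* had levels of 3.26 and 0.54 in the control and BHPF liver, −0.72 and −3.85 in the ovary, and 0.86 and −0.66 in the uterus. The BHPF liver was below the control uterus, and the BHPF ovary was the lowest of the 6. The log2 ratio was −2.73 in the liver, −3.13 in the ovary and −1.52 in the uterus, that is 6.63-, 8.75- and 2.86-fold lower, and in the ovary it was the 4th lowest of 16863 genes.

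*S100a9*, its partner, had levels of 3.96 and 1.69 in the liver, 0.18 and −2.37 in the ovary, and 1.60 and 0.59 in the uterus, control first. The order of the arrays was that of *S100a8*, except that BHPF liver and control uterus changed places, and for *S100a9* these arrays differed by less than 2 SD of the spread between spots (0.287 at these levels). *S100a9* was 4.83-fold lower with BHPF in the liver, 5.85-fold in the ovary and 2.0-fold in the uterus (log2 ratios −2.27, −2.55 and −1.0).

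*Retnlg*, resistin-like gamma, a secreted protein of neutrophils and their late precursors, had levels of 2.49 and 0.11 in the liver, −2.67 and −4.76 in the ovary, and −0.97 and −1.44 in the uterus. It was 5.19-fold lower with BHPF in the liver and 4.24-fold lower in the ovary (log2 ratios −2.38 and −2.08). In the uterus the ratio was −0.47, a smaller difference though beyond 2 SD between spots.

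The 2 receptors of the set had smaller differences than *S100a8*, *S100a9* and *Retnlg*, which does not extend to receptors outside the set. *Cxcr2*, the receptor through which CXC chemokines draw neutrophils out of the marrow, had levels of −2.28 and −3.22 in the control and BHPF liver, −4.26 and −4.36 in the ovary, and −3.82 and −3.65 in the uterus. Its log2 ratio was −0.94 in the liver, −0.10 in the ovary and 0.17 in the uterus, the last 2 within the spread between spots. *Csf3r*, the receptor for granulocyte colony-stimulating factor, gave 4.28 and 4.12, 3.47 and 3.46, and 3.83 and 3.86, with ratios of −0.15, −0.01 and 0.03, which were 0.20, 0.38 and 0.25 with normexp background correction. The 6 values spanned 0.82, and liver and ovary controls differed by 1.75-fold where the other 9 genes differed by 3.54-fold or more. The *Trem1* probe, for another receptor of mature neutrophils, lay between 3.35 and 4.52 on the 6 arrays. What the *Csf3r* probe measured in these tissues was not tested, and results without it are given with the limits of processing.

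**Figure D2:**
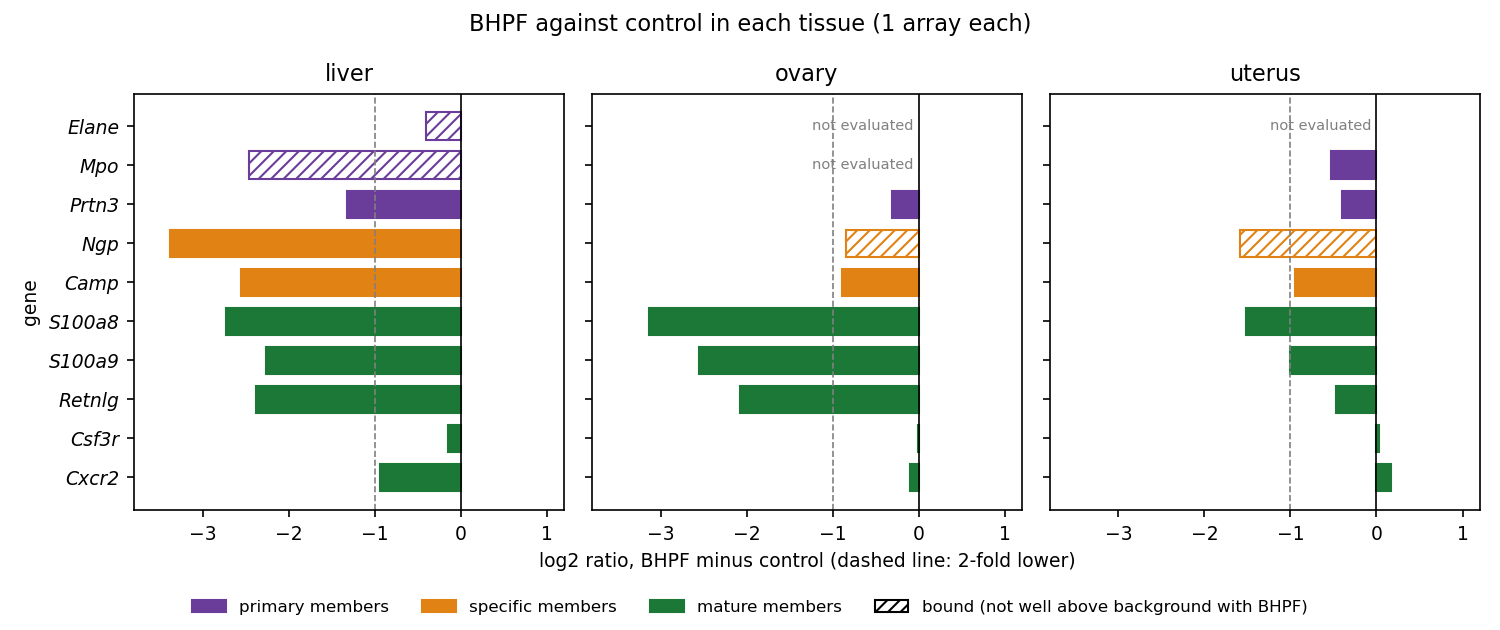
Log2 ratio of BHPF to control for each gene (horizontal axis) in the liver, ovary and uterus, 1 array per group. Hatched bars are bounds, where the gene was not well above background with BHPF, and the dashed line marks 2-fold lower. Bars passed the line for 7 genes in the liver and 3 each in the ovary and uterus.

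In the liver all 10 genes had a lower level with BHPF (*Csf3r* a higher one with normexp), and 7 were lower by 2-fold or more, where 1.54% of the 15530 genes evaluated were; the genes were selected with this contrast known, and nothing is read from that share. The 7 were *Mpo*, *Prtn3*, *Ngp*, *Camp*, *S100a8*, *S100a9* and *Retnlg*, and the median log2 ratio of the 10 was −2.32 against 0.00 over all genes. Taken by step, the median was −1.32 for the 3 primary granule genes, of which 2 are at a bound, −2.96 for the 2 specific granule genes and −2.27 for the 5 genes of mature neutrophils. Mature minus primary was −0.95, where the primary median was the measured ratio of *Prtn3*. The true gap may be smaller if *Elane*, known only to be at most −0.41, in fact lay below −1.32. With own values in place of bounds the gap was again −0.95. Genes of immature and of mature cells were therefore both lower in the liver.

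In the ovary 3 of the 8 genes evaluated were at least 2-fold lower with BHPF (*S100a8*, *S100a9* and *Retnlg*), where 0.617% of 16863 genes were. The median was −0.87 for the 8 genes, −0.87 for the 2 specific granule genes and −2.08 for the 5 mature genes. *Prtn3* was the sole primary granule gene well above background, at −0.31, and mature minus primary, which rests on that gene, was −1.77. Neither *Elane* nor *Mpo* was well above background in the ovary, with or without BHPF, and they give no ratio. The specific granule median includes *Ngp* at its bound of −0.85, where its own values would give −3.08. The difference between ovary and liver was not tested.

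In the uterus 3 of 9 genes were at least 2-fold lower (*Ngp* at its bound, *S100a8* and *S100a9*, the last at 2.0-fold), where 0.823% of 16161 genes were. The median over the 9 was −0.53, and by step it was −0.46 for *Mpo* and *Prtn3*, −1.27 for *Ngp* and *Camp*, and −0.47 for the 5 mature genes, with mature minus primary at −0.01. The effect of the liver transcripts depends on the share that is taken away from the BHPF uterus array. At the lowest share among the 8 markers, 0.92%, the log2 ratio was −1.55 for *S100a8*, −1.03 for *S100a9*, −0.99 for *Camp*, −0.51 for *Retnlg* and −0.72 for *Prtn3*, and the median over the 9 genes was −0.72. *Prtn3* would reach an intensity of 0 at a share of 4.53%, so the marker median of 9.21% cannot hold for it. At 2.26%, which is 0.5 of that limit, *S100a8* was −1.60, *S100a9* −1.07 and *Prtn3* −1.40, the median was −1.04 and 5 of 9 genes were at least 2-fold lower. *Mpo* stayed at −0.53 at each of these shares.

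**Figure D3:**
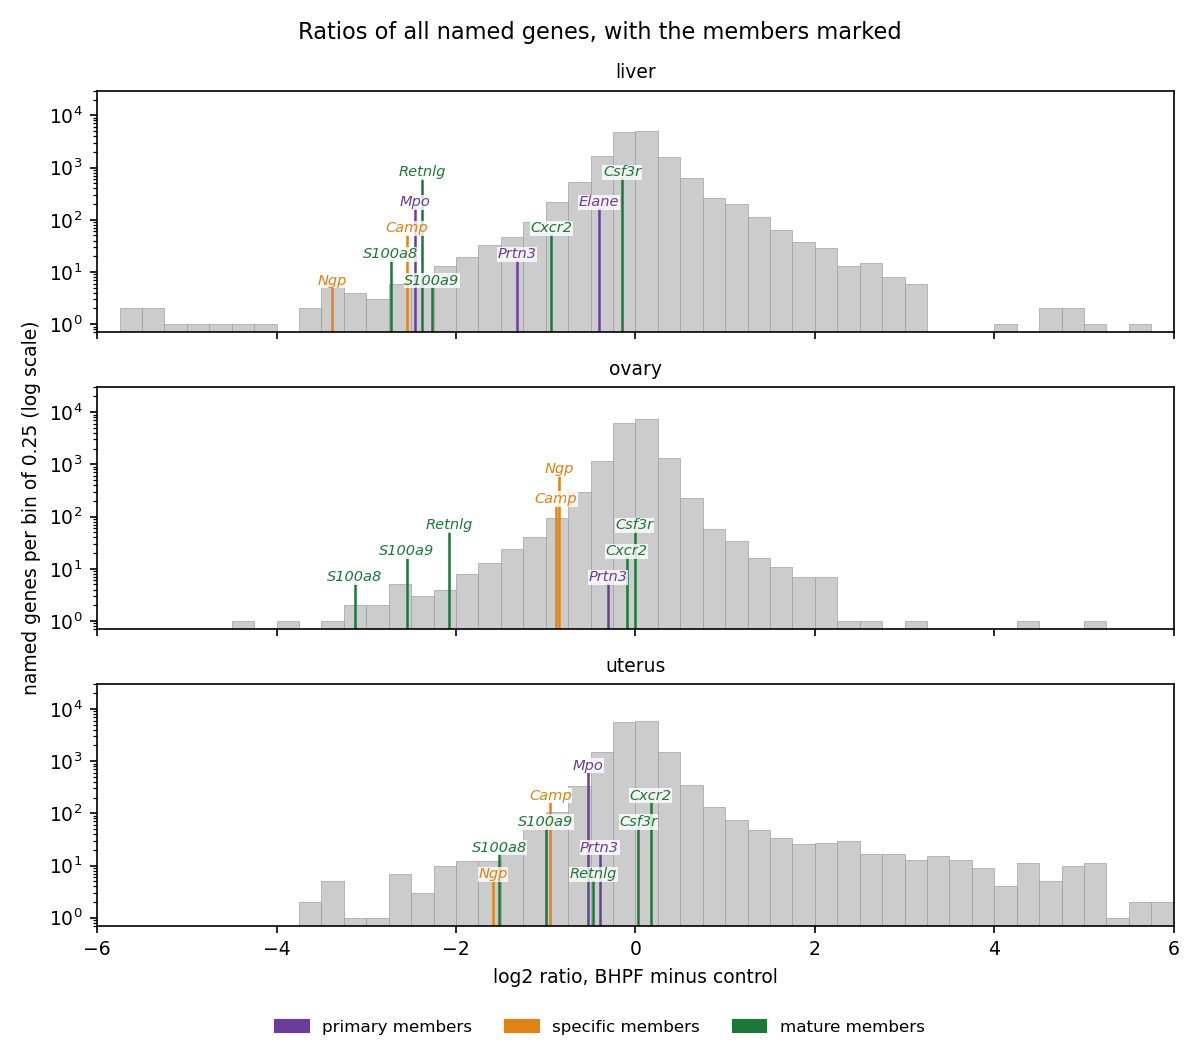
Distribution of the log2 ratio (horizontal axis) over all genes with a symbol in each tissue, as genes per bin of 0.25 on a log scale, with the neutrophil genes marked by coloured lines whose height carries no value. *S100a8*, *S100a9* and *Retnlg* lay in the thin left tail of the ovary, at −3.13, −2.55 and −2.08, and nearer the bulk in the uterus.

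Further genes of each step were taken from lists drawn up by role, with earlier results of these arrays known. Of 7 other primary granule and promyelocyte genes evaluated in the liver, 2 were at least 2-fold lower with BHPF (*Ctsg*, at most −2.88, and *Ms4a3*, at most −1.42, both bounds) and 1 was higher (*Gfi1*, at least 1.24). *Ctsc*, the dipeptidyl peptidase that activates elastase and its relatives, was −0.51, *Serpinb1a*, an elastase inhibitor, −0.56, and *Myb*, a transcription factor of early precursors, at most −0.24. *Prss57* was at a bound of 0.00 in the liver, at 0.05 in the ovary and at −0.18 in the uterus. The median of the list in the liver was −0.51. In the ovary and uterus 0 of 6 were 2-fold lower, with medians of −0.15 and −0.07.

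Among 11 other specific and gelatinase granule genes in the liver, 6 were at least 2-fold lower and the median was −1.19. *Ltf*, the iron-binding lactoferrin, had levels of 0.47 and −3.71 in the control and BHPF liver, −0.50 and −4.48 in the ovary, and 3.46 and 3.5 in the uterus. Its log2 ratio was hence −4.18 and −3.98 in the first 2 tissues and 0.04 in the uterus, whose epithelium also makes lactoferrin. *Chil3*, a chitinase-like protein also made by macrophages, was lower in all 3 tissues, at −3.09, at most −2.97 and −2.72. *Mmp8*, neutrophil collagenase, was −3.48, −1.32 and −1.71. *Lcn2*, the siderophore-binding lipocalin, was −1.19, −1.24 and −0.69. *Ltb4r1*, the leukotriene B4 receptor, was −0.47, 0.03 and −0.32. *Padi4*, which citrullinates histones, was at most −0.88 in the liver and 1.40 in the ovary, the mean of 2 probes. In the ovary 4 of 9 were 2-fold lower and in the uterus 2 of 9, with medians of −0.12 and −0.14.

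Other genes of mature neutrophils were at least 2-fold lower in 15 of 26 cases in the liver, 12 of 25 in the ovary and 8 of 26 in the uterus, with medians of −1.33, −0.69 and −0.23. The 6 with the highest mean level held few of these. *Ifitm6* was −2.56 in the liver, −0.11 in the ovary and 0.14 in the uterus, and *Wfdc17* was −0.27, −1.27 and 0.23. *Wfdc21* had an even level in the liver (4.75 ± 0.07 SD over 9 spots and 4.70 ± 0.08 over 10 spots). It was higher on the BHPF uterus array, which is the array with liver transcripts (0.02 ± 0.13 against −1.93 ± 0.13, 10 spots each). The part of liver transcripts in this *Wfdc21* value was not tested. *Trem1*, *Hdc* and *G0s2* lay between −0.76 and 0.32 in the 3 tissues. The stefin A genes, cysteine protease inhibitors with similar sequences whose probes may share signal, held many of the low ratios in this list, which is noted after their values were seen. Without them the 3 lists of other neutrophil genes had 16 of 37 genes 2-fold lower in the liver, 10 of 34 in the ovary and 4 of 34 in the uterus, against 23 of 44, 16 of 40 and 10 of 41 with them.

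Probes printed several times gave some of these genes a spread of their own. *Il1b*, the cytokine interleukin 1 beta, had a level of 1.54 ± 0.10 in the control liver and −0.01 ± 0.12 in the BHPF liver (SD over 10 spots each), and −2.80 ± 0.11 and −3.97 ± 0.13 in the ovary (10 spots each). In the uterus it was −3.40 ± 0.08 and −3.35 ± 0.08 (9 spots each). The *Il1b* differences in liver and ovary were thus many times the spread between spots, and its uterus values differed by less than that spread. *Mmp9*, of the gelatinase granule list, was −3.32 ± 0.10 in the control liver and −6.86 ± 0.19, not well above background, in the BHPF liver (10 spots each). It was even in the ovary (−5.37 ± 0.22 and −5.43 ± 0.25, 10 spots each). In the uterus it was −2.45 ± 0.05 (8 spots) in the control and −2.45 ± 0.09 (9 spots) with BHPF.

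The NADPH oxidase makes superoxide in neutrophils and macrophages alike. Its 6 genes had medians of −0.72 in the liver, −0.89 in the ovary and −0.07 in the uterus, with 2, 2 and 0 at least 2-fold lower. *Rac2*, the haematopoietic GTPase of the complex, was −1.19, −1.06 and 0.10, and *Cyba*, the subunit that many other cells express, was −0.26, 0.08 and −0.04. *Ncf1* was −1.03, −0.87 and −0.11, *Ncf4* −0.96, −0.91 and −0.42, and *Cybb*, the catalytic subunit, −0.48, −1.28 and −0.31.

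The S100 family as a whole did not share the pattern of its neutrophil pair. Other S100 genes had medians of −0.01 in the liver (11 genes), 0.06 in the ovary (12) and 0.06 in the uterus (12), with 1, 0 and 0 of them at least 2-fold lower. *S100a10*, *S100a13*, *S100a16*, *S100a11* and *S100a1* lay between −0.38 and 0.29 in all 3 tissues, and *S100a6* was −1.01 in the liver, −0.08 in the ovary and 0.07 in the uterus. Receptors and partners for the alarmins had medians of −0.44, −0.03 and −0.19. *Cd14*, the co-receptor of TLR4, was −2.25 in the liver, −0.66 in the ovary and −0.16 in the uterus, and *Tlr4* itself was −0.49, −0.08 and 0.45. *Bsg*, *Ly96*, *Myd88* and *Cd36* lay between −0.76 and 0.25.

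Chemokines and growth factors that act on neutrophils were evaluated for 7 genes in the liver, 6 in the ovary and 9 in the uterus, with medians of −0.22, −0.18 and 0.03. *Cxcl1*, a ligand of Cxcr2, was −0.70, −0.09 and −0.03, and *Cxcl12*, which retains neutrophils in the marrow, was 0.25, 0.05 and 0.03. *Ppbp* and *Pf4*, chemokines of platelets, were −2.24 and −1.5 in the liver, −0.81 and −0.28 in the ovary, and 0.5 and −0.09 in the uterus. *Ccl3* was 0.15, −0.76 and 0.17. *Cxcl5* was −1.23 in the uterus and 0.17 in the ovary. Platelet markers had a median of −0.43 in the liver with 2 of 9 at least 2-fold lower.

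Markers of other leukocytes were set beside these results. In the liver and ovary 9 and 10 of 10 pan-leukocyte markers were lower with BHPF, with medians of −0.53 and −0.55, and their summed level was 24.9 in the control liver and 14.7 in the BHPF liver, 8.13 and 4.91 in the ovary, and 13.9 and 15.3 in the uterus (on a linear scale where 1 is the 75th percentile of the array). Among them *Itgb2*, the integrin chain of neutrophils and other leukocytes, was −1.51, −0.83 and 0.12, *Coro1a* −1.25, −0.59 and −0.01, *Arhgdib* −0.89, −0.50 and 0.01, and *Cd52* −0.60, −1.06 and 0.28. The medians of monocyte markers were −0.46, −0.17 and −0.04, and those of macrophage markers −0.17, −0.51 and 0.08. Of the macrophage genes with the highest mean level, *C1qa* was −0.01, −0.61 and 0.08, *C1qb* −0.11, −0.59 and 0.25, *Adgre1* −1.08, −1.20 and 0.08, and *Csf1r* −0.24, −0.20 and −0.20. T cell markers had medians of 0.26, −0.09 and 0.34 and B cell markers of −0.23, −0.05 and 0.07. The part of the wider leukocyte difference in the neutrophil result was not tested.

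In the uterus the markers of mast cells and basophils moved the other way. All 6 evaluated were above 0, with a median of 1.05, and 3 were at least 2-fold higher, where 367 of 16161 genes were. Their summed level was 1.41 in the control and 2.48 with BHPF. The other tissues were mixed. In the liver 4 of 6 were above 0 and 2 below, with a median of 0.55, and 2 were at least 2-fold higher, where 497 of 15530 genes were. In the ovary 3 of 5 were above 0 and 2 below, with a median of 0.2, and 0 were 2-fold higher. In the uterus *Mcpt4* was 1.12, *Cma1* 0.98, *Tpsb2* 0.44 and *Kit* 0.21. In the same tissue *Ctsg*, cathepsin G, a primary granule protease that mast cells also make, went from −4.10 in the control to −0.78 with BHPF (log2 ratio 3.32), while in the liver it was −2.03 in the control and not well above background with BHPF. The part of mast cells in the *Ctsg* value was not tested.

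**Figure D4:**
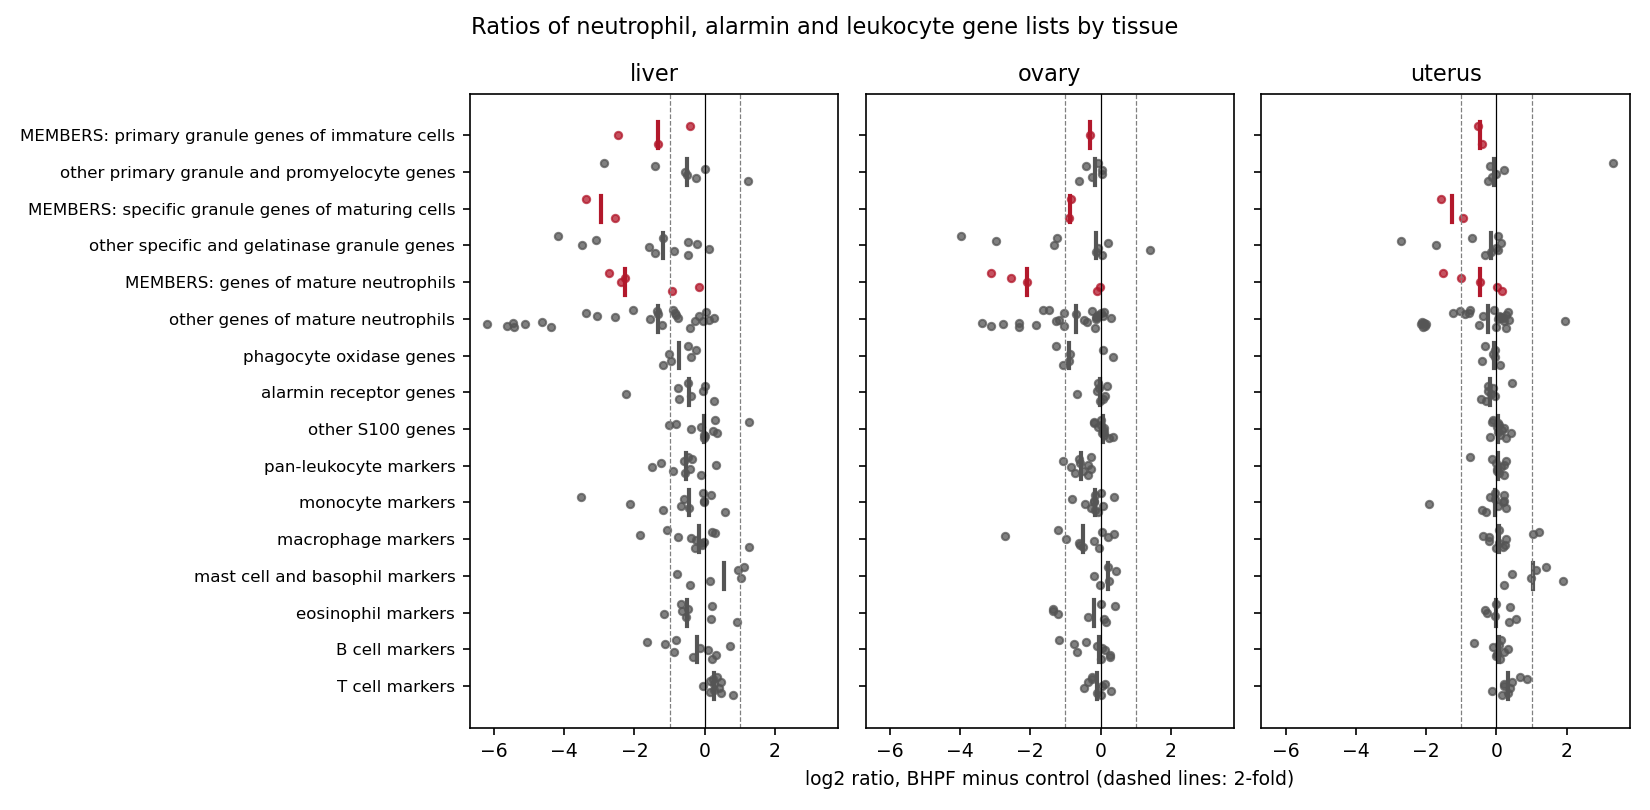
Log2 ratio of BHPF to control (horizontal axis) for every evaluated gene of each list, with a vertical bar at the list median; the 10 neutrophil genes are in red under their 3 steps and other lists in grey, and dashed lines mark 2-fold. In the liver the medians of other primary, other specific granule and other mature genes were −0.51, −1.19 and −1.33, and in the ovary −0.15, −0.12 and −0.69, whereas other S100 genes stayed near 0. Mast cell and basophil markers had medians of 0.55 in the liver, 0.2 in the ovary and 1.05 in the uterus.

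Over the 6 arrays, the mean level of the 5 mature genes was 2.34 and 0.65 in the control and BHPF liver, −0.80 and −2.38 in the ovary, and 0.30 and −0.26 in the uterus. The 10 genes nearest to this profile, among 3116 genes that were well above background on all arrays and spanned at least 2 on the log2 scale, were *Nckap1l*, *Ms4a6d*, *Marco*, *Otulinl*, *Pirb*, *Acod1*, *Fpr2*, *Fermt3*, *Lrmp* and *Sirpb1b*, with Pearson r over the 6 arrays of 0.9915 down to 0.9852. The arrays share 3 tissues and 1 slide, and r is given as a description of likeness. *Fpr2*, a formyl peptide receptor, had levels of 1.40 and −0.64 in the liver, −2.63 and −4.26 in the ovary, and −1.64 and −2.38 in the uterus. *Marco*, a scavenger receptor of macrophages, had log2 ratios of −1.85, −2.71 and −0.38, and *Acod1*, which makes itaconate, of −1.23, −1.05 and −0.49.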

How the data were processed

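Total RNA of 6 pools was labelled with Cy3 and hybridised to Agilent one-colour arrays; the authors extracted spot intensities with Agilent Feature Extraction (version 9.1 per the labels, 11.5.1.1 per the file headers), and the methods name a percentile shift in GeneSpring. The deposited intensities were the background-subtracted processed signals. The authors' deposited log2 table held the same arrays shifted by a constant per array (99.1% or more of values within 0.001), except that its uterus columns matched each other's scanner array, so it served only as an alternative.

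Here control spots and outlier spots were left out, spots of a probe were averaged as log2 intensity, and each array's 75th percentile was taken off (Python 3.11.15, pandas 2.3.3). A probe counted as well above background if at least 0.5 of its spots did, and a gene was evaluated if it was so on at least 1 of the 2 arrays; its ratio is the mean over its evaluated probes. Probe accessions were matched to RefSeq symbols (48.1% of probes). Precision is limited by 1 array per group. Named were all 10 genes, up to 6 genes of each neutrophil, oxidase, chemokine, alarmin receptor and S100 list and 4 of each other list, highest mean level first, and the 10 genes of likest profile. Also named, outside that order, were *Il1b* and *Mmp9*, whose probes were printed several times, and *Ms4a3*, 2-fold lower in the liver. The genes, lists and motifs were chosen with earlier results of these data known. Alternatives used normexp (limma 3.58.1, offset 50), other scalings, other treatment of dim genes, the brightest probe, a 4-fold threshold and the authors' table. The calculation was tested on simulated data.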

Additional observations from a re-analysis of the deposited data

Results flagged for a closer look

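Of 101 genes of the neutrophil, oxidase, chemokine, alarmin receptor and S100 lists screened for opposite 2-fold differences in different tissues, 1 was found. *Ctsg* had a log2 ratio of 3.32 in the uterus and of at most −2.88 in the liver. The difference between the tissues was not tested, since each group is 1 array.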

How the results depend on the processing

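The counts of genes at least 2-fold lower or higher stayed within 1.5 times of the reported count except in the uterus, where 0 of 9 genes were lower by the authors' table as headed and 0 at a 4-fold threshold. That table, whose uterus columns match each other's scanner array, turned *S100a8* to 1.52, *S100a9* to 1.0 and *Ngp* to a bound of 0.00, with a uterus median of 0.47; with the columns exchanged the reported side of 0 returned. The liver median was −1.88 with normexp and −2.64 with scaling to the 50th percentile, which moved the median of all genes by −0.30. Mature minus primary was −0.60 in the liver and −1.09 in the ovary with normexp. With own values in place of bounds the ovary median was −1.49. Among alternatives chosen after seeing the data, leaving out *Csf3r* gave an ovary mature minus primary of −2.0 and, in the uterus, a median of −0.74 and mature minus primary of −0.27. Removing a liver share of 0.92, 2.26 or 9.21% from the BHPF uterus gave medians of −0.72, −1.04 and −1.12 and a mature minus primary of 0.12, 0.39 and −0.39, the last without *Prtn3*, so its sign depends on the share; at 2.26%, 5 genes were at least 2-fold lower. Under the alternatives named with the methods, the authors' uterus columns aside, the 7 liver genes and 3 ovary genes had a log2 ratio of −1 or lower wherever they were evaluated, as did *Ngp* and *S100a8* in the uterus but not *S100a9*. *Mpo* in the liver and *Ngp* in the uterus were not evaluated where both arrays had to be well above background, which left 6 of 8 and 2 of 8 genes lower. Genes near the background intensity, such as *Elane*, have bounds only.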
